A study of Mus musculus with 20 samples.

Results

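The plasma cell programme was followed here through 8 genes, Jchain, Sdc1, Prdm1, Irf4, Mzb1, Tnfrsf17, Derl3 and Creld2, matched by symbol to the Ensembl identifiers of the count table. All 8 were found among the 37620 genes of the table, and all 8 passed the filter on low counts that left 17824 genes for testing. Levels are given as CPM, the counts of a gene per 1e+06 scaled counts of its sample.

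Messenger RNA was sequenced from mouse cells selected with magnetic beads against B220, a form of CD45 (the product of Ptprc) on the surface of B cells. All mice were of C57BL/6 background. Normal spleen gave 4 samples (Normal), lymphomas labelled VavPBcl2/vector 8 (Vector) and lymphomas labelled VavPBcl2/Myc 8 (Myc). VavPBcl2 mice carry a Bcl2 transgene under the Vav promoter, which is active throughout the blood lineages, so both lymphoma groups share a block of apoptosis that the normal samples, whose labels name no transgene, do not. The Myc lymphomas were transduced with Myc, a transcription factor that drives cell growth and division, and the vector lymphomas with the empty vector. Comparing the vector lymphomas with normal spleen therefore joins the transgene, the tumour and the transduction, which cannot be told apart. The ages of the mice, the site of each lymphoma and whether the replicates of a group were separate animals are not given in the sources used here, so p-values measure only the spread between these samples, which may be technical.

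Plasma cells are the antibody-secreting end stage of the B lineage. Irf4 and Blimp-1, the product of Prdm1, switch on this state and shut down the transcription factors Pax5, Bach2 and Bcl6 that hold a cell in the B cell state. Xbp1 then enlarges the endoplasmic reticulum (ER), where antibody chains are folded, joined and checked before secretion. Mature plasma cells carry little B220, so the selection used here takes up fewer of them than of B cells.

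Each sample held 28.7 to 56.3 M counts assigned to genes (M for 1e+06), so that even Tnfrsf17, the scarcest member, rested on 17 or more counts in every sample. Myc itself lay at 48.3 to 226 CPM in the vector lymphomas, 179 to 343 in the normal samples and 313 to 1650 in the Myc lymphomas, so the groups labelled Vector and Myc did not overlap. The run numbers in the descriptions were used to split the samples into 2 sets. Normal replicate 1 and vector replicates 1 to 6 are called the later runs, and the 13 remaining samples the earlier runs. The runs came from 4 instruments, and no dates are given. Run numbers of the 2 sets overlap, as with 85 for vector replicate 2 (later) and 90 for Myc replicate 3 (earlier). The run number alone does not fix the set, since 89 is listed for vector replicate 1 (later) and vector replicate 8 (earlier). How the runs of the 4 instruments were assigned to a set is not given here. Earlier and later are thus names of the sets, and their order in time was not checked. All 8 Myc lymphomas were in the earlier runs, so group and run overlap in part. Vector replicates 7 and 8, of the earlier runs, share a title prefix that vector replicates 1 to 6, of the later runs, lack. Among the vector lymphomas run and title prefix therefore cannot be told apart, also where run is used in a fit. Myc replicate 5 stood apart with a scaling factor of 0.68, against 0.91 or more in the other samples, and leaving it out changed no call of a member. The members, and the counts of the gene lists, are given a second time within the earlier runs, where 8 Myc lymphomas stand against 2 vector lymphomas and 3 normal samples.

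Summed over the 8 members, a total led by Jchain, the level was 547 to 872 CPM in normal, 4470 to 8160 in vector and 805 to 4080 in Myc samples. The genes did not all follow this order. Jchain, Sdc1, Tnfrsf17, Derl3, Creld2 and Prdm1 were higher in vector lymphomas than in normal cells. In Myc lymphomas Jchain, Sdc1 and Irf4 were lower than in vector lymphomas, while the other 5 did not pass the test. In these bulk samples, fewer cells of a type and less RNA per cell cannot be told apart.

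**Figure D1:**
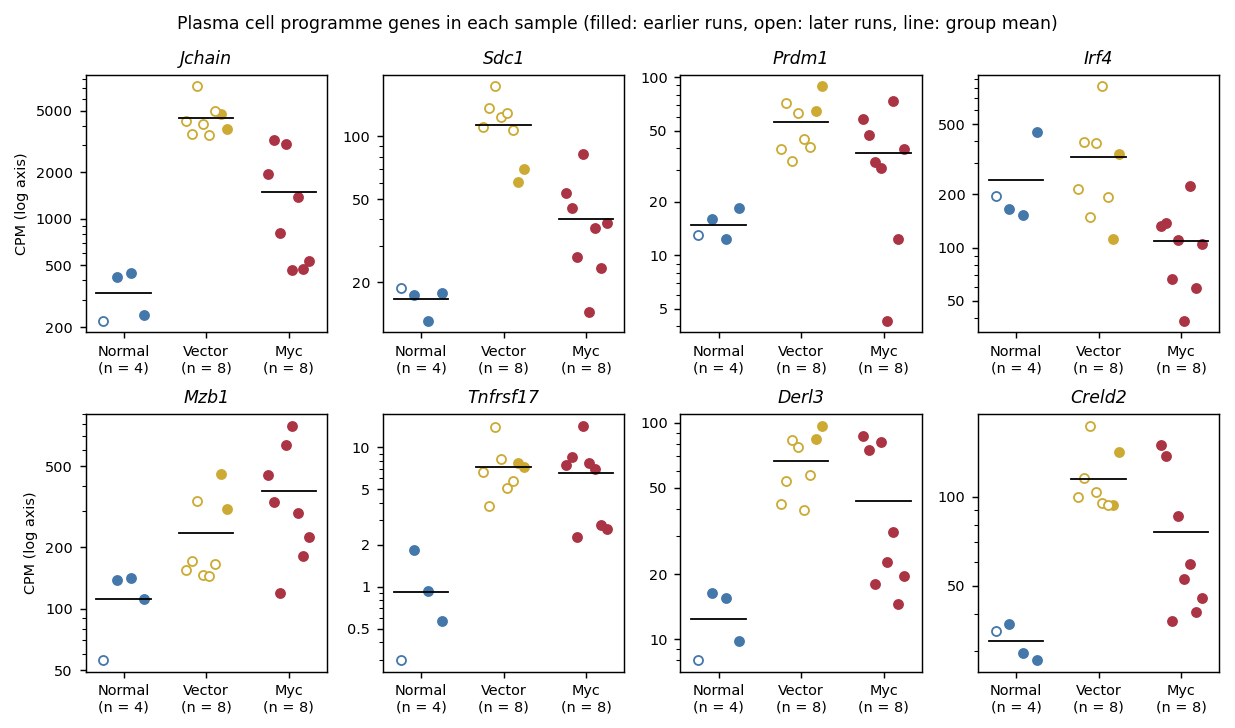
CPM of each member (log axis) in the 4 normal, 8 vector and 8 Myc samples. Points are samples, filled for earlier and open for later sequencing runs, and lines are group means. For Jchain the vector lymphomas, at 3510 to 7200 CPM, lie above every other sample.

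Of the 2 regulators, Irf4 (ENSMUSG00000021356, chromosome 13: 30749226 to 30766976 in GRCm38) encodes an interferon regulatory factor needed in both activated B cells and plasma cells, and it is also transcribed in activated T cells. In normal replicates 1 to 4 it stood at 196, 165, 153 and 449 CPM. Vector lymphomas ranged from 112 to 820 CPM with a median of 277, and Myc lymphomas from 38.5 to 222 CPM with a median of 108. The 3 groups overlapped, and vector replicate 5 was the highest sample while Myc replicate 5 was the lowest. The mean of Irf4 was 3.01-fold lower in Myc lymphomas than in those with the vector (-1.59 ± 0.40, given here and below as log2 fold change ± its standard error, SE, with adjusted p = 0.0027 by edgeR's quasi-likelihood test), with all 8 Myc lymphomas below the vector median. It did not pass the threshold of 0.05 in vector lymphomas against normal cells (0.44 ± 0.48, adjusted p = 0.62) or in Myc lymphomas against normal cells (-1.14 ± 0.46, adjusted p = 0.052). The last of these lay on the edge of the threshold and crossed it in 6 of 23 alternative fits.

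Prdm1 (ENSMUSG00000038151, chromosome 10: 44437177 to 44528501) encodes Blimp-1, the repressor that closes the B cell programme, and is likewise used by activated T cells. Normal replicates 1 to 4 held 13.0, 16.1, 12.3 and 18.4 CPM. Vector lymphomas held 33.9 to 89.1 CPM (median 54.1), all above the normal samples. Myc lymphomas spread 17.1-fold, from 4.3 CPM in replicate 5 to 73.4 in replicate 6 (median 36.6), and so reached both below the normal and into the vector range. The mean was 3.75-fold higher in vector lymphomas than in normal cells (1.91 ± 0.49, adjusted p = 0.015). This call was lost without normal replicate 3 (1.85, adjusted p = 0.054). In Myc lymphomas Prdm1 was higher than in normal cells (1.33 ± 0.48, adjusted p = 0.032), a call lost in 10 of 23 alternatives, among them the fits without normal replicates 1, 2 or 3 and without Myc replicates 1 or 6 (log2 1.10 to 1.39, adjusted p = 0.052 to 0.078). Between the lymphoma groups it did not pass (-0.58 ± 0.37, adjusted p = 0.2).

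Among the genes of the secreted product and the cell surface, Jchain showed the widest difference. Jchain (ENSMUSG00000067149, chromosome 5: 88519809 to 88527891) encodes the joining chain that links IgM and IgA into polymers. It stood at 220, 422, 445 and 238 CPM in normal replicates 1 to 4. Vector lymphomas held 3510 to 7200 CPM (median 4220). Myc lymphomas held 468 to 3250 CPM (median 1100), and none of the 3 groups overlapped another. Jchain was 13.7-fold higher in vector lymphomas than in normal cells (3.77 ± 0.58, adjusted p = 0.00029) and 3.04-fold lower in Myc than in vector lymphomas (-1.60 ± 0.39, adjusted p = 0.0023). The Myc lymphomas still exceeded normal cells 4.50-fold (2.17 ± 0.52, adjusted p = 0.003). Myc replicates 5, 7 and 8, at 468, 472 and 532 CPM, lay close to the highest normal sample.

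Sdc1 (ENSMUSG00000020592, chromosome 12: 8771323 to 8793715) encodes syndecan-1, or CD138, the heparan sulphate proteoglycan by which plasma cells are commonly recognised. Normal replicates 1 to 4 held 18.8, 17.3, 13.1 and 17.8 CPM, a narrow range. Vector lymphomas held 60.4 to 174 CPM (median 118) and Myc lymphomas 14.4 to 82.2 CPM (median 37.4). Every vector lymphoma lay above every normal sample, and 7 of 8 Myc lymphomas did so, Myc replicate 5 being the exception. Sdc1 was 6.81-fold higher in vector lymphomas than in normal cells (2.77 ± 0.39, adjusted p = 0.00012) and 2.85-fold lower in Myc than in vector lymphomas (-1.51 ± 0.28, adjusted p = 0.00021). Against normal cells the Myc lymphomas were 2.39-fold higher (1.26 ± 0.36, adjusted p = 0.0087). The 2 vector lymphomas of the earlier runs, at 60.4 and 69.6 CPM, lay below the 6 of the later runs, at 107 to 174 CPM. These sets also differ in title prefix, so run and prefix cannot be told apart. Within the earlier runs the difference between the lymphoma groups was -0.67 (adjusted p = 0.41), against -1.51 over all samples.

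Tnfrsf17 (ENSMUSG00000022496, chromosome 16: 11313812 to 11320074) encodes BCMA, the receptor through which plasma cells take survival signals from the cytokine APRIL. It was scarce in normal cells, at 0.298, 1.84, 0.937 and 0.564 CPM in replicates 1 to 4. Vector lymphomas held 3.76 to 13.9 CPM (median 6.90) and Myc lymphomas 2.28 to 14.3 CPM (median 7.21). Both lymphoma groups lay wholly above the normal samples and spanned nearly the same range as each other. The gain over normal cells was 7.97-fold in vector lymphomas (2.99 ± 0.56, adjusted p = 0.0017) and 7.20-fold in Myc lymphomas (2.85 ± 0.56, adjusted p = 0.00057). Between the lymphoma groups the difference was -0.15 ± 0.39 (adjusted p = 0.77), and it changed sign to 0.05 without vector replicate 3.

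The remaining members act in the ER. Mzb1 (ENSMUSG00000024353) encodes a cofactor of the chaperone Grp94 that helps assemble and secrete IgM, and is made by marginal zone and B-1 cells as well as plasma cells. It stood at 56.1, 138, 141 and 111 CPM in normal replicates 1 to 4. Vector lymphomas held 145 to 459 CPM (median 169) and Myc lymphomas 120 to 790 CPM (median 314). The vector lymphomas lay just above the normal samples, and the Myc lymphomas overlapped both groups. Mzb1 was the single member with a higher mean in Myc than in vector lymphomas, 379 ± 232 against 236 ± 117 CPM (SD, n = 8 each), without passing the test (0.68 ± 0.35, adjusted p = 0.11). It was higher in Myc lymphomas than in normal cells (1.77 ± 0.47, adjusted p = 0.0059), while vector lymphomas against normal cells did not pass (1.08 ± 0.45, adjusted p = 0.14). Vector replicates 7 and 8, of the earlier runs, held 459 and 309 CPM, and 5 of the 6 later-run vector lymphomas held 145 to 172 CPM. Here too, run and title prefix cannot be told apart. Within the earlier runs the log2 difference between the lymphoma groups was 0.00 (adjusted p = 1). It became a call without vector replicate 7 (0.89, adjusted p = 0.04) or without Myc replicate 3 (0.82, adjusted p = 0.046), and was 0.45 (adjusted p = 0.27) without Myc replicate 5.

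Derl3 (ENSMUSG00000009092, chromosome 10: 75893413 to 75895941) encodes a derlin that passes misfolded proteins out of the ER for degradation. Creld2 (ENSMUSG00000023272, chromosome 15: 88819646 to 88826683) encodes an ER protein induced when unfolded proteins build up. Their promoters are shown because these 2 genes were correlated between Myc lymphomas, as described further on, and because both hold the ER stress response element, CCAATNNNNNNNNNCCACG, the site at which the unfolded protein response is known to act with the factor NF-Y. The sequences are the 250 bases before the RefSeq start of each gene on the forward strand of GRCm38.p6 (chr10:75893148-75893397 for Derl3 and chr15:88819396-88819645 for Creld2), and capitals mark matches to that element and, in Derl3, to the E-box CACGTG.
Derl3: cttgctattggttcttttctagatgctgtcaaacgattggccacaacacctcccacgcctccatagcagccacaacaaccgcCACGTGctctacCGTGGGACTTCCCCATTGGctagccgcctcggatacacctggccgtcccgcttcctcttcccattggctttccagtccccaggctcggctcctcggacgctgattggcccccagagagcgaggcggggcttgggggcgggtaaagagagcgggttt
Creld2: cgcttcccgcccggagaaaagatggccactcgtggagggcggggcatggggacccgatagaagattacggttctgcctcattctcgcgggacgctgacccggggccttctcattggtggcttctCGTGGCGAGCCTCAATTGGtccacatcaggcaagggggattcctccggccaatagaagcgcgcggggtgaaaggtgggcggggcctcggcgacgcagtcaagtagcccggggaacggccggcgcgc
In both windows the element is read on the reverse strand, so it appears as its complement, beginning 156 bases before the start in Derl3 and 126 in Creld2. The E-box of Derl3 begins 168 bases before the start and does not overlap the element. Both strands of windows of this length were searched. The element occurred in 37 of the 32851 RefSeq promoter windows searched (0.113%), the E-box in 6.02%. The windows searched do not cover every chromosome. A window was searched for 7 of the 8 members, all but Mzb1. The element was found in those of Derl3 and Creld2 and not in the other 5. The unfolded protein response core TGACGTG (1.65% of windows) and the ETS-IRF composite site GGAANNGAAA (2.3%) matched no member window, and the interferon-type repeat GAAANNGAAA (2.98%) matched that of Tnfrsf17. A match describes letters in the reference and shows no binding.

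Derl3 stood at 8.03, 16.3, 15.5 and 9.80 CPM in normal replicates 1 to 4. Vector lymphomas held 39.7 to 97.1 CPM (median 67.4), all above the normal samples. Myc lymphomas held 14.5 to 86.6 CPM (median 27.1) with a gap between 3 samples at 74.5 to 86.6 CPM (replicates 1, 2 and 4) and 5 at 14.5 to 31.4 CPM. Derl3 was 5.39-fold higher in vector lymphomas than in normal cells (2.43 ± 0.49, adjusted p = 0.003) and higher in Myc lymphomas than in normal cells (1.81 ± 0.48, adjusted p = 0.0055). The difference between the lymphoma groups did not pass (-0.62 ± 0.36, adjusted p = 0.16).

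Creld2 followed the same order. Normal replicates 1 to 4 held 35.2, 37.0, 29.5 and 28 CPM. Vector lymphomas held 93.4 to 174 CPM (median 102) and Myc lymphomas 37.8 to 149 CPM (median 56.1). Neither lymphoma group overlapped the normal samples, although the lowest Myc lymphoma, replicate 3, lay just above normal replicate 2. Creld2 was 3.53-fold higher in vector lymphomas than in normal cells (1.82 ± 0.35, adjusted p = 0.0021) and 2.35-fold higher in Myc lymphomas (1.23 ± 0.34, adjusted p = 0.0077). Myc against vector lymphomas gave -0.59 ± 0.26 (adjusted p = 0.068), which became a call without Myc replicate 1 (-0.80, adjusted p = 0.011) or replicate 2 (-0.76, adjusted p = 0.018).

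**Figure D2:**
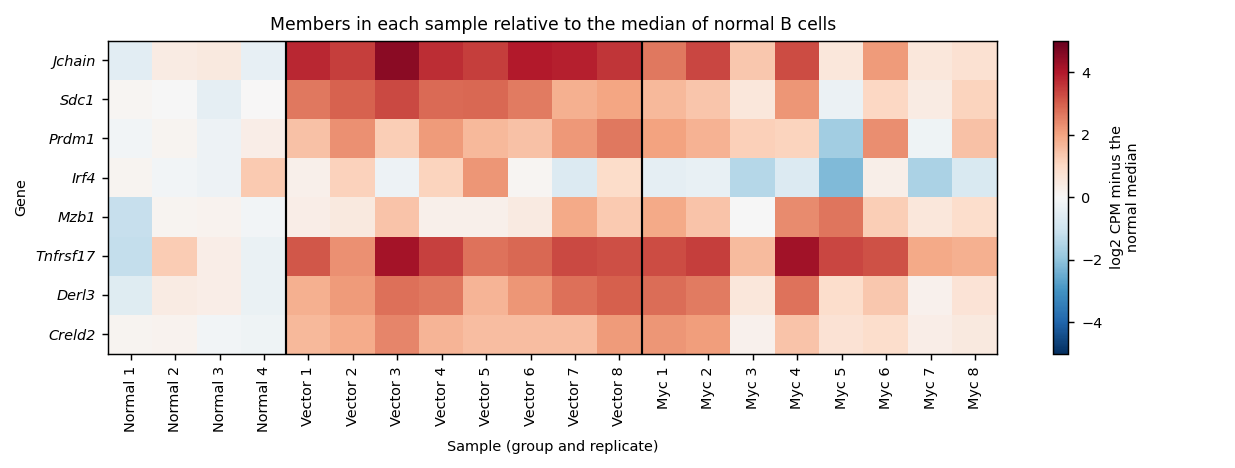
Log2 CPM of the 8 members in each of 20 samples, as the difference from the median of the normal samples (red higher, blue lower). Jchain, Tnfrsf17, Derl3 and Creld2 lie above the normal median in every lymphoma, while Irf4 is blue in most Myc lymphomas.

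Counted together, 6 of 8 members were higher and 0 lower in vector lymphomas than in normal cells at an adjusted p under 0.05, where 7.46% of all tested genes were higher and 3.36% lower. For 7 of 8 members, all but Irf4, every vector lymphoma lay above every normal sample, which held for 7.33% of genes. The median log2 fold change of the members was 2.17, against -0.03 over all genes. In Myc against normal cells 7 of 8 were higher and 0 lower (background 21.5% higher and 17.9% lower), and Jchain, Tnfrsf17 and Creld2 did not overlap (background 13.1%), with a member median of 1.55 against 0.08. In Myc against vector lymphomas 3 of 8 were lower and 0 higher, where 21.9% of all genes were lower and 26.6% higher, so the share of members called was not far from the background. Jchain alone did not overlap between the lymphoma groups (background 6.38%), and the member median was -0.60 against 0.08. Each pair of these comparisons shares a group of samples, so they are not independent.

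Leaving out the later runs lowered the number of calls in each comparison. Within the earlier runs 0 of 8 members were called in vector lymphomas against normal cells (background 0.665% in either direction), with 2 samples against 3. The member median there was 2.18, against 2.17 over all samples, with Jchain at 3.55 (adjusted p = 0.075) and Tnfrsf17 at 2.75 (adjusted p = 0.11). For Myc against vector lymphomas 0 of 8 were called (background 7.37% in either direction), with Jchain at -1.49 (adjusted p = 0.18) and Irf4 at -1.04 (adjusted p = 0.29). For Myc lymphomas against normal cells Jchain, Sdc1, Mzb1 and Tnfrsf17 kept their calls, 4 of 8 (background 12.7% higher). With the run set as a term in the fit of all samples, 7 members were higher in vector lymphomas than in normal cells (background 4.86%), Mzb1 joining at 1.64 (adjusted p = 0.032). In that fit 6 were higher in Myc lymphomas than in normal cells (background 20.6%), and Jchain alone was lower in Myc than in vector lymphomas (-1.73, adjusted p = 0.03, background 9.77% lower).

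**Figure D3:**
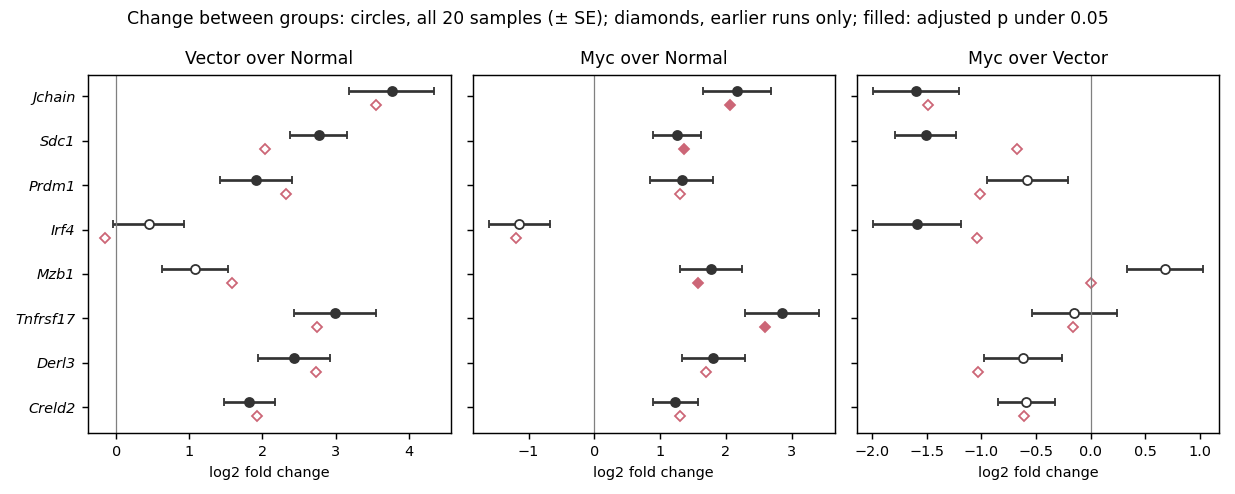
Log2 fold change of each member in the 3 comparisons. Circles are the fit of all 20 samples with bars of 1 SE, diamonds are the earlier runs alone, and filled symbols passed an adjusted p under 0.05. Most diamonds lie near their circles, while that of Sdc1 in Myc over vector moves from -1.51 to -0.67 and that of Mzb1 from 0.68 to 0.

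The members differed in how much of their variation lay between the groups. On the log2 CPM scale the groups held 78.3% of the variance of Jchain, 78.1% of Sdc1 and 70.7% of Tnfrsf17. For the ER genes Creld2 and Derl3 the share was 63.2% and 60.1%. It was lowest for Irf4 (44.5%), Mzb1 (40.8%) and Prdm1 (39.5%). Per kilobase of exon, taken from GENCODE vM21 rather than the annotation used for counting, the mean level of Jchain was the highest in each group, at 132 CPM per kilobase in normal, 1800 in vector and 592 in Myc samples. Mzb1 was second in each, at 91.7, 194 and 312 CPM per kilobase. Prdm1 and Tnfrsf17 filled the lowest 2 places in each group, at 10 CPM per kilobase or less.

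Other genes of the plasma cell state were called in both directions in Myc lymphomas. Of 20 further plasma cell genes, 6 were higher and 0 lower in vector lymphomas than in normal cells (median log2 fold change 0.44), 4 were higher and 10 lower in Myc than in vector lymphomas (median -0.56), and 5 were higher and 5 lower in Myc lymphomas than in normal cells (median 0.11). The shares of all genes are those given above, 26.6% higher and 21.9% lower in Myc against vector lymphomas. In that comparison the list fell to 0 higher and 3 lower within the earlier runs, while the run term left 1 and 5. In vector lymphomas against normal cells 2 and 5 genes were higher in these fits. The values of single list genes below are from all samples. Xbp1, the driver of ER expansion, had means of 122, 396 and 261 CPM in normal, vector and Myc samples. It rose in vector lymphomas over normal cells (1.70 ± 0.30, adjusted p = 0.0011) and was lower in Myc than in vector lymphomas (-0.60 ± 0.23, adjusted p = 0.034). Txndc5, an ER thiol oxidoreductase, followed the same order, with 183, 589 and 318 CPM (-0.89 in Myc over vector, adjusted p = 0.00017). Pou2af1, the B cell coactivator OCA-B, and Mcl1, the Bcl2 relative on which plasma cells depend, were lower in Myc lymphomas than in both other groups (-1.62 and -0.98 against vector lymphomas, adjusted p = 1.3e-05 and 1e-04). Fkbp11, a prolyl isomerase of the secretory pathway, went the other way and was highest in Myc lymphomas, with 2.28, 4.81 and 18.8 CPM (1.96 in Myc over vector, adjusted p = 0.00017).

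Of 30 genes for protein folding and secretion in the ER, 8 were higher and 0 lower in vector lymphomas than in normal cells (0 higher within the earlier runs, 3 with the run term). Of all genes 7.46% were higher and 3.36% lower there, and 4.86% higher with the run term. In Myc against vector lymphomas 7 were higher and 8 lower, shares near those of all genes, and this became 0 and 2 within the earlier runs, while the run term gave 2 and 3. Myc lymphomas against normal cells gave 13 higher and 4 lower (6 and 1 within the earlier runs, 12 and 4 with the run term). Of all genes 21.5% were higher and 17.9% lower there. Dnajb9, a cochaperone of BiP, fell by 2.21 on the log2 scale in Myc against vector lymphomas (adjusted p = 6e-06), from 86.8 to 18.7 CPM. Ero1lb, an oxidase for disulphide bonds, and Creld1, the relative of Creld2, were also lower (-1.36 and -1.40, adjusted p = 9.5e-06 and 2.4e-06). Ssr2, a subunit of the translocon-associated complex, was higher (1.52, adjusted p = 7.9e-05). Of 14 genes for ER-associated degradation, in which Derl3 works, 3 were higher in vector lymphomas than in normal cells and 5 were lower in Myc than in vector lymphomas, with none called in the opposite direction. The earlier runs alone gave 0 and 1, the run term 1 and 1. Of all genes 7.46% were higher in vector over normal and 21.9% lower in Myc over vector. The 5 of 14 lower are thus not far from the share of all genes. With the run term the shares of all genes were 4.86% and 9.77%, near the 1 of 14 called in each. Syvn1, the ubiquitin ligase of this pathway, fell by 1.32 (adjusted p = 1.1e-06), and Os9 and Derl1 by 0.67 and 0.34 (adjusted p = 0.0026 and 0.026).

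Most B cell genes that plasma cells silence were lower in Myc than in vector lymphomas. Of 15 such genes, 12 were lower and 1 higher there (median -1.81), where 21.9% of all genes were lower and 26.6% higher (median 0.08). In vector lymphomas against normal cells 2 of 15 were higher and 1 lower, not far from the 7.46% and 3.36% of all genes. Within the earlier runs 9 were lower and 1 higher in Myc than in vector lymphomas (7.37% of all genes called in either direction). With the run term 11 were lower and 1 higher (9.77% of all genes lower). Bach2 had means of 189, 359 and 62.5 CPM in normal, vector and Myc samples (-2.52 in Myc over vector, adjusted p = 2e-06). Pax5 had 153, 244 and 70.0 CPM (-1.81, adjusted p = 9e-06) and Bcl6 105, 212 and 44.1 CPM (-2.27, adjusted p = 1.2e-06). Bcl6, the repressor of Prdm1, passed the test in vector lymphomas over normal cells too (1.02, adjusted p = 0.045). Ciita, the activator of MHC class II, and Cd22, a surface inhibitor of B cell signalling, fell by 2.14 and 2.29 in Myc against vector lymphomas (adjusted p = 6.8e-07 and 7e-08). Jchain, Sdc1 and Irf4 were thus lower in the same comparison and direction as these B cell genes. The receptors that share ligands with Tnfrsf17 also fell there, the BAFF receptor Tnfrsf13c by 1.66 (adjusted p = 7.3e-07) and Tnfrsf13b by 0.62 (adjusted p = 0.0055). The APRIL gene Tnfsf13 was scarce, at 0.801, 1.2 and 0.346 CPM, and fell by 1.78 (adjusted p = 0.0036), and the BAFF gene Tnfsf13b did not pass (0.78, adjusted p = 0.28).

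The summed antibody constant region transcripts had the same order of groups as Jchain. Of 8 constant region genes measured, 6 were higher in vector lymphomas than in normal cells (median 5.68), 6 were lower in Myc than in vector lymphomas (median -1.36) and 5 were higher in Myc lymphomas than in normal cells (median 3.89), with none called in the opposite direction. Within the earlier runs these counts were 2, 1 and 5, and with the run term 7, 4 and 5. Of all genes 7.46% were higher in vector over normal, 21.9% lower in Myc over vector and 21.5% higher in Myc over normal. With the run term these shares were 4.86%, 9.77% and 20.6%. Within the earlier runs 0.665% and 7.37% were called in either direction in the first 2 comparisons, and 12.7% were higher in Myc over normal. Their sum was 7250 to 11300 CPM in normal, 32800 to 89200 in vector and 8000 to 44600 in Myc samples, so the vector lymphomas lay above the normal samples and the Myc lymphomas reached into both ranges. Igkc, the kappa light chain, had means of 2930, 22300 and 6620 CPM (2.93 in vector over normal, adjusted p = 0.0015, and -1.75 in Myc over vector, adjusted p = 0.001). Ighm had 5810, 13200 and 7210 CPM and passed in Myc over vector only (-0.87, adjusted p = 0.032). Iglc2, a lambda chain, fell by 1.18 in Myc against vector lymphomas (adjusted p = 0.012). The switched isotypes Ighg2c and Ighg2b rose by 5.77 and 5.64 in vector lymphomas over normal cells (adjusted p = 0.0011 and 0.00036), and since these genes are similar in sequence, their reads may be split or lost. Igha and Ighd were not analysed here.

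Markers of cell types in the selection were called in shares that differed from list to list, and some shares were near those of all genes. In Myc against vector lymphomas 26.6% of all genes were higher and 21.9% lower. Within the earlier runs 7.37% were called there in either direction, and with the run term 9.77% were lower. Of 10 pan-B cell markers, 9 were lower and 0 higher in Myc than in vector lymphomas, with summed levels of 7060 to 8320 CPM in normal, 6570 to 10300 in vector and 1830 to 5630 in Myc samples. Within the earlier runs 6 were lower and with the run term 7. All 10 were detected in each sample. Ptprc, the gene of CD45, had means of 1460, 1160 and 670 CPM and fell by 0.79 in Myc against vector lymphomas (adjusted p = 0.02). B220 is a form of CD45, and counts per gene do not separate it from other forms. Of 12 markers of plasmacytoid dendritic cells, which can carry B220 as well, 8 were higher and 2 lower in Myc than in vector lymphomas (5 and 0 within the earlier runs, 7 and 1 with the run term). Their summed level was 894 to 1000 CPM in normal, 802 to 1030 in vector and 464 to 2230 in Myc samples. The defining marker Siglech lay at 36.2 to 66.2, 2.65 to 37.3 and 44.6 to 260 CPM in the same order. The most abundant genes of this list, Irf8 and Tcf4, which B cells also express, did not follow Siglech. Irf8 had means of 509, 607 and 379 CPM and was lower in Myc than in vector lymphomas (-0.68, adjusted p = 0.035), and Tcf4 had 127, 152 and 128 CPM and did not pass (-0.25, adjusted p = 0.41).

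Of 10 NK and cytotoxic markers, 9 were higher in Myc than in vector lymphomas (summed 343 to 1740 against 76.8 to 209 CPM, and 229 to 390 in normal samples), with 3 higher within the earlier runs and 7 with the run term. Of 12 T cell markers, 4 were higher and 1 lower, 1 and 0 within the earlier runs, 2 and 0 when the run term was added (971 to 1910 against 849 to 1420 CPM, and 1530 to 1700 in normal samples). Over all samples the share of T cell markers called higher was not far from the 26.6% of all genes, and the share called lower was under 21.9%. Erythroid genes were higher in both lymphoma groups than in normal samples, 8 of 8 each (120 to 1720 CPM in normal, 2100 to 10400 in vector and 3230 to 52700 in Myc samples). Against normal samples 7.46% of all genes were higher in vector and 21.5% in Myc lymphomas. For vector lymphomas against normal samples 0 of 8 were called within the earlier runs and 0 with the run term, while all 8 did for Myc lymphomas in both fits. Neutrophil genes were higher in Myc than in vector lymphomas for 5 of 10 and than in normal samples for 8 of 10 (120 to 947, 68.4 to 6180 and 1670 to 16700 CPM in normal, vector and Myc samples). Between the lymphoma groups 0 neutrophil genes were higher and 1 lower within the earlier runs, and 0 were called with the run term, while the 8 against normal samples were 8 in both fits. Macrophage markers gave 1 of 10 higher and 1 lower between the lymphoma groups, and stromal markers 1 of 8 each way, all under the shares of all genes. At most 1 marker of any of these lists was at 0 in a sample. The part of these cells in the levels of the members was not tested.

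Within the Myc lymphomas most pairs of members were positively correlated, and 3 pairs passed the test. Of 28 pairs of members, 26 had a positive Pearson r of log2 CPM over the 8 samples, with a median of 0.62 and a range from -0.30 to 0.95. Derl3 and Creld2 were the closest pair (r = 0.95, exact permutation p = 0.00069, adjusted 0.0097 over 28 pairs, Spearman rho = 0.95, p = 0.0011, adjusted 0.032), and r was 0.98 without the 2 samples farthest from the median of Derl3. The 3 samples with high Derl3 were also the highest for Creld2, so this r rests in part on the gap to the other 5 samples, which are too few for a correlation of their own. These are the 2 genes whose promoters hold the element shown above, and whether the element bears on their correlation was not tested. Prdm1 and Irf4, the regulators, also passed by Pearson's r (r = 0.91, exact p = 0.00027, adjusted 0.0076, rho = 0.90, p = 0.0046, adjusted 0.064, and r = 0.85 without the 2 farthest samples). Jchain and Derl3 gave r = 0.92 (exact p = 0.004, adjusted 0.037), with a Spearman rho of 0.74 (p = 0.046) that did not hold after adjustment (0.13), and r = 0.86 without the 2 farthest samples. No other pair passed after adjustment, Mzb1 with Tnfrsf17 coming nearest (r = 0.86, exact p = 0.0079, adjusted 0.055, rho = 0.86, p = 0.011, adjusted 0.075). Mzb1 ran against Prdm1 (r = -0.30), and Myc replicate 5 was the highest for Mzb1, at 790 CPM, and the lowest for Jchain, Sdc1, Prdm1 and Irf4. Myc replicate 7 was among the 2 lowest samples for 7 of 8 members.

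The Myc lymphomas carry 2 title prefixes of 4 samples each, replicates 1 to 4 and 5 to 8, and the labels do not say what the prefixes mean. Jchain held 815 to 3250 CPM under the first and 468 to 1380 under the second, and Creld2 37.8 to 149 and 40.8 to 59.3. Derl3 held 18.0 to 86.6 and 14.5 to 31.4, so the high samples for both ER genes were all under the first prefix. The summed plasmacytoid dendritic markers went the other way without overlap, at 464 to 846 and 1120 to 2230 CPM. With 4 samples each, no correlation within a prefix is given, and the part of the prefix in the pairs above was not tested.

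**Figure D4:**
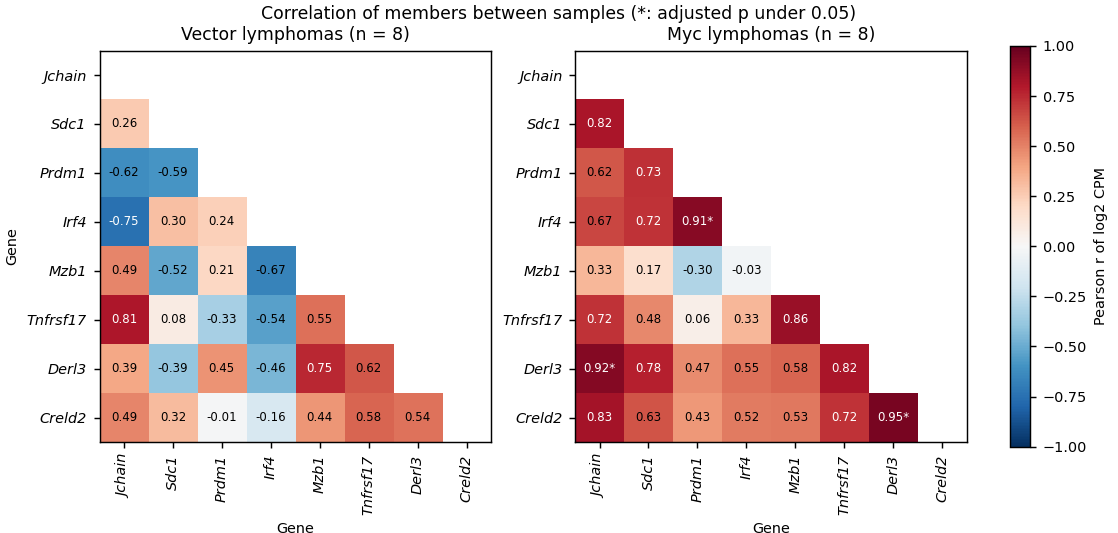
Pearson r of log2 CPM for each pair of members over the 8 vector lymphomas (left) and the 8 Myc lymphomas (right). Stars mark an adjusted p under 0.05 over the 28 pairs of a group. The Myc panel holds 26 positive pairs and 3 stars, the vector panel 17 positive pairs and no star.

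In the vector lymphomas no pair passed. There 17 of 28 pairs had a positive r, with a median of 0.25, and 0 passed after adjustment by either measure, 3 having a Pearson p under 0.05 before it (exact permutation test). Jchain against Irf4 had a negative r (r = -0.75, exact p = 0.03, adjusted 0.42, rho = -0.90, p = 0.0046, adjusted 0.13), which did not hold after adjustment. Within the 6 later-run vector lymphomas the median r was 0.54 and again 0 pairs passed. Without the 2 samples farthest from the median of the first gene of a pair, the median r was -0.06 in the later-run vector lymphomas. Over all 8 vector lymphomas it was then 0.18. Whether the correlations differ between the lymphoma groups was not tested. Vector replicate 3 was the highest of its group for 4 of 8 members, Jchain, Sdc1, Tnfrsf17 and Creld2, and the lowest for Prdm1.

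For each member, the genes most like it were taken as the 3 with the highest Pearson r of log2 CPM over the 20 samples after subtracting each group's mean, among 11338 candidate genes. They are given as a description, since all values come from the same libraries. Around Derl3 stood Pdia6 (r = 0.91), Xbp1 (0.91) and Ube2j1 (0.90), and around Creld2 Pdia6 (0.85), Dnajb11 (0.84) and Txndc11 (0.84). Pdia6 and Txndc11 are thioredoxin-like proteins of the ER, Dnajb11 a cochaperone of BiP and Ube2j1 a ubiquitin-conjugating enzyme of ER-associated degradation. Tnfrsf17 was nearest to Fkbp11 (0.86), Txndc5 (0.84) and Pon3 (0.81), and Mzb1 to Ssr2 (0.95), Uxt (0.89) and Manf (0.89), an ER protein released under stress. The regulators had other neighbours, Zbtb20 (0.93), Sspn (0.92) and Fam214a (0.91) for Prdm1, and Maff (0.92), Zbtb10 (0.91) and Sik1 (0.89) for Irf4. Zbtb20 is a transcription factor of long-lived plasma cells. Jchain was nearest to Fut8 (0.91), the enzyme that adds core fucose to antibody glycans, Oosp1 (0.90) and Chst1 (0.89), and Sdc1 to Man1b1 (0.89), Extl3 (0.88) and Timm29 (0.88). Extl3 belongs to the enzymes that build heparan sulphate, the sugar chain that Sdc1 carries.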

How the data were processed

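Poly-adenylated RNA was sequenced on the Ion Proton platform, per the labels' protocols. The authors deposited raw counts per Ensembl gene, 1 column per sample, and the tools listed by the submitters' processing notes are HTSeq, Picard 1.119 and BWA 0.7.5a, beside the builds NCBIM37 and mm9, without roles. Of the reads listed per sample, 37.1 to 57.0% were counted to genes, and 14.3 to 40.3% aligned to more than 1 place. The 5 lines of reads assigned to no gene stayed out of library sizes and tests. Symbols, positions and lengths came from GENCODE vM21 (GRCm38), which is not the build of the counts, and promoters from RefSeq GRCm38.p6.

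Genes were filtered with filterByExpr, scaled by TMM and fitted once over 20 samples in edgeR 4.0.16. Its quasi-likelihood test was two-sided, with Benjamini-Hochberg adjustment over 17824 genes and a threshold of 0.05. The method was tested on simulated data. SE is the log2 fold change divided by the root of F, and a prior count of 2 was added for log2 CPM. Correlations used exact two-sided permutation tests. Alternatives were other scalings and filters, DESeq2 1.42.0, limma 3.58.1 voom, run sets, 2 groups only, no immunoglobulin genes and each sample left out.

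The members and lists were chosen with earlier results of these data known. Genes named are the members, up to 4 per pathway list by smallest p in Myc over vector, Xbp1, Pax5, Bach2, Bcl6, Ighm, Igha and Igkc, up to 2 per cell type list by mean CPM, and 3 neighbours per member with at least 5 CPM in 1 group. Siglech was named after its values were seen. 1 gene that the rule names is not reported here.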

Additional observations from a re-analysis of the deposited data

How the results depend on the processing

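Across 584 recomputed log2 fold changes of single members, 542 kept their direction and their side of the threshold, 24 lost a call, 14 gained one and 4 changed sign. The number of members called moved by over 1.5 times with 3 settings. Within the earlier sequencing runs it fell to 0 in Myc over vector, 0 in vector over normal and 4 in Myc over normal, where fewer samples were compared. With the run set as a term 1 member was called in Myc over vector, and with limma voom 5, Derl3 (-0.90, adjusted p = 0.039) and Creld2 (-0.75, adjusted p = 0.02) joining. Smaller moves came with upper-quartile scaling and DESeq2 (8 in Myc over normal), the run term (6 in Myc over normal and 7 in vector over normal) and 2 groups only (7 in vector over normal). Leaving out 1 sample gave 3 to 4 members called in Myc over vector, 5 to 6 in vector over normal and 6 to 7 in Myc over normal. The 4 sign changes were Mzb1 in Myc over vector within the earlier runs (0) and with the run term (-0.06), Irf4 in vector over normal within the earlier runs (-0.16), and Tnfrsf17 in Myc over vector without vector replicate 3 (0.05, in a range of -0.41 to 0.05 over single samples left out). None of these 4 was a call in the fit of all samples, and the cause was not tested. Jchain, Sdc1, Mzb1 and Tnfrsf17 kept their calls in Myc over normal under all 23 alternatives. Irf4 in Myc over normal became a lower call under 6, among them DESeq2 (-1.12, adjusted p = 0.041) and the fit without Myc replicate 6 (-1.39, adjusted p = 0.019). With library totals alone the median over all genes moved from -0.03 to -0.18 in vector over normal and from 0.08 to -0.11 in Myc over normal. No paired analysis was possible because the labels give no replicate number that links samples of different groups. Tnfrsf17 in normal samples, with 17 to 104 counts, is the level that depth limits most.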
